A study of Mus musculus with 36 samples.

Results

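The RNA response of mouse cortical neurons to 1 h of BDNF (brain-derived neurotrophic factor, a secreted neurotrophin) was taken from 8 RNA-seq libraries, namely the 2 BDNF libraries of 1 h and the 6 libraries of unstimulated controls, out of 18 RNA libraries and 36 samples in the series. Cortical cells of CD-1 embryos at embryonic day 15 were dissociated, the tissue of the embryos being combined, and cultured for 7 days. Before stimulation, activity was suppressed for 2 h by AP-5 at 100 µM, which blocks NMDA receptors, and TTX at 1 µM, which blocks sodium channels, and the neurons then received 10 ng/ml BDNF for 1 h. Controls received no BDNF and had been silenced for 3, 8 or 12 h, with 2 libraries at each of the times named 1, 6 and 10 h, and the labels do not say whether the blockers stayed on during BDNF. All groups carry the same strain label, and the labels name no genotype or transgene. Members were the values in these 8 columns for 16209 genes of the 26709 in the table, those with a mean normalised count of at least 10 over the 18 RNA libraries.

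BDNF binds the receptor tyrosine kinase TrkB, encoded by Ntrk2, which recruits adaptors and activates the Ras-ERK, PI3K-Akt and phospholipase C branches. ERK and its downstream kinases phosphorylate transcription factors such as SRF partners of the ternary complex family and CREB that are already present in the cell, so that immediate early genes are transcribed without new protein synthesis. Many of these genes encode transcription factors (Fos, Egr, Nr4a), some encode proteins of synapses or secretory vesicles (Arc, Homer1, Vgf), and others encode phosphatases and adaptors that limit the signal itself (Dusp, Spry).

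The BDNF libraries A and B held 8508452 and 17058879 reads in genes and the controls 9747599 to 36699187, library A of BDNF being the shallowest of all 18. A normalised count is the reads of a gene divided by a size factor of its library, and it is not corrected for gene length, so levels are compared between libraries and not between genes. The study describes its samples as biological replicates. No animal is tied to a library, so p-values measure a spread between libraries, which may be technical. That spread was pooled within groups over all 18 RNA libraries, the KCl and later BDNF libraries included. Errors of log2 fold changes are SE, and those of levels are SD over 2 BDNF or 6 control libraries. Defining markers of neurons were present (Tubb3 at 14838 to 17369.6 and Map2 at 22342 to 25227 normalised counts in the controls), and so were those of astrocytes (Gfap, 182 to 379.7), oligodendrocyte precursors (Pdgfra, 1300.4 to 1496) and dividing cells (Mki67, 1879 to 3508). Microglial and endothelial marker genes took at most 0.000869% and 0.000451% of the counts of any of the 8 libraries.

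After 1 h of BDNF, 3459 genes (21.3% of those tested) were called higher and 3087 (19.0%) lower than in controls, or 6546 genes (40.4%) in all, at a Benjamini-Hochberg adjusted p below 0.1 in a limma model of log2(normalised count + 1). Most of these changes were small, with a median log2 fold change of 0.39 among genes called higher and -0.43 among genes called lower. A change of at least 2-fold was called for 431 genes higher (2.66%) and 217 lower (1.34%). By size, 115 genes rose and 7 fell at least 4-fold, and 46 genes rose and 0 fell at least 8-fold. In 7441 genes (45.9%) both BDNF values lay outside the range of the 6 controls, and 6129 of these were among the called genes. Without BDNF library A, the shallower one, 3926 genes were called, of which 2169 were higher and 1757 lower. With the controls of 1 h alone, 2030 genes were called lower. A fit on the 8 libraries alone called 7315 genes, 3841 higher and 3474 lower. The balance turned with the scaling between libraries, since TMM gave 3021 genes higher and 3351 lower, and edgeR on whole reads 3071 and 3359, whereas DESeq2 gave 3010 and 2749.

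**Figure D1:**
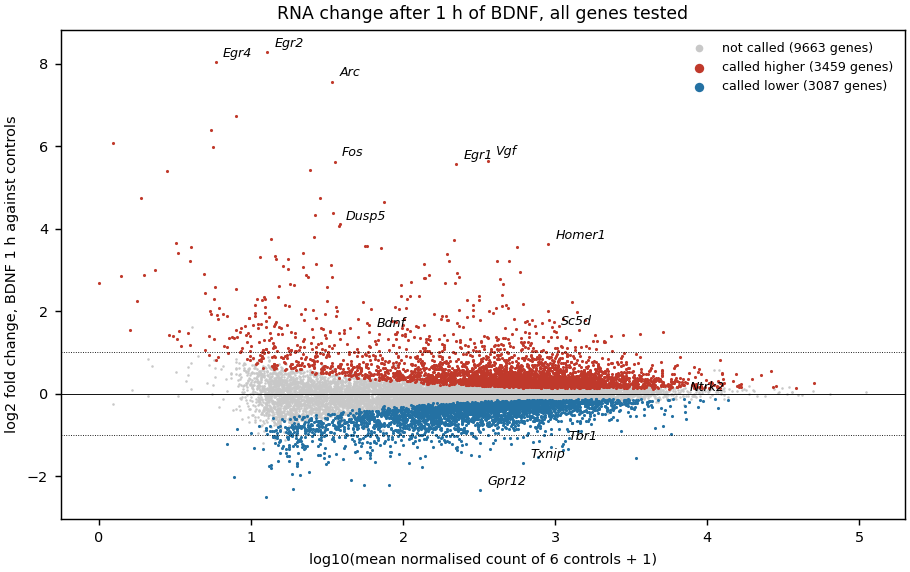
Each point is 1 of 16209 genes, with the mean normalised count of the 6 controls on the x axis (log10 of the count + 1) and the log2 fold change of BDNF 1 h against controls on the y axis. Red genes were called higher (3459), blue genes lower (3087) and grey genes were not called, and the dotted lines mark a 2-fold change. The largest changes are rises of genes with low control levels, and no fall reaches 8-fold.

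Genes at least 2-fold higher took 3.36% and 3.41% of all normalised counts in the BDNF libraries and 1.08 to 1.10% in the controls, as the choice of these genes fixes in direction. The 15 genes with the largest rises among those above 50 normalised counts took 0.361% and 0.371% after BDNF, and at most 0.00804% in a control. These 15 genes were, in order, Egr2, Egr4, Arc, Fosb, Rrad, Mir132, 1700016P03Rik, Vgf, Fos, Egr1, Egr3, Areg, Sertad1, Junb and Gadd45b. They hold all Egr factors and 3 AP-1 subunits.

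The largest rise was that of Egr2, a zinc-finger transcription factor of the immediate early class (chr10:67535475-67542188, mm10). Its normalised count was 3868 and 3913 in BDNF libraries A and B, and 8.30 to 15.6 (median 11.5) in the 6 controls. The lowest BDNF value was far above every control (log2 fold change 8.27 ± 0.18, adjusted p = 1.56e-19). Egr4 rose from 1.04 to 10.2 (median 3.45) in controls to 1238 and 1401 after BDNF. Both BDNF libraries stood far above the controls, whose counts were so few that the size of the change rests on a handful of reads (log2 fold change 8.04 ± 0.49, adjusted p = 2.28e-08). Egr1 held 10503 and 10568 after BDNF against 194 to 247 (median 225) in controls (log2 fold change 5.56 ± 0.09, adjusted p = 2.61e-21), and Egr3 967 and 1059 against 17.1 to 30.7 (median 22.2) (log2 fold change 5.41 ± 0.22, adjusted p = 2.4e-14). The corepressors that bind Egr proteins and limit them rose too, Nab2 by 3.54 ± 0.16 and Nab1 by 2.01 ± 0.09 on the log2 scale. All 6 members of the list of Egr factors and Nab corepressors were called higher, beside 21.3% of all genes tested. Their median log2 fold change was 5.49, beside 0.00 over all genes tested.

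Sequences upstream of the start sites show what the genes at the extremes of the response carry there, and are given for the 6 largest rises and the 2 largest falls that have an entry in the RefSeq promoter table (GRCm38.p6). Each run is the 250 bases before the start site, 5′ to 3′ on the strand of the gene. Capitals mark exact matches, on either strand, to the E-box CACGTG, the cAMP response element (CRE) TGACGTCA, its short form TGACG, the AP-1 site TGANTCA, the EGR site GCGTGGGCG, the TATA box TATAAA, the FoxO site GTAAACA or the SRF-binding CArG box. The full CRE contains the short form on both strands, so Areg counts under both. The intervals were chr10:67535249-67535498 (plus strand) for Egr2, chr6:85513590-85513839 (minus strand) for Egr4, chr7:19310046-19310295 (minus strand) for Fosb, chr12:85473640-85473889 (plus strand) for Fos, chr5:91139349-91139598 (plus strand) for Areg, chr7:27486703-27486952 (plus strand) for Sertad1, chr5:146585240-146585489 (minus strand) for Gpr12, chr11:50841553-50841802 (minus strand) for Zfp879.
Egr2: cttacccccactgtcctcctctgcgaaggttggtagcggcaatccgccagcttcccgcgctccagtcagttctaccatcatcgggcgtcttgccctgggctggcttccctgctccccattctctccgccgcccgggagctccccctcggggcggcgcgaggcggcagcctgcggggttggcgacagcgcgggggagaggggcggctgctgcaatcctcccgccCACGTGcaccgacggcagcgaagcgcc
Egr4: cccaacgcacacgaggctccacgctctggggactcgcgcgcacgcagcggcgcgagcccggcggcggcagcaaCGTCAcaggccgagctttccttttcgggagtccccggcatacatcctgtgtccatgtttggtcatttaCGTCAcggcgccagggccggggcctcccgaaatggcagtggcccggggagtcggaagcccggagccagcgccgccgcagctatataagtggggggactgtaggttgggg
Fosb: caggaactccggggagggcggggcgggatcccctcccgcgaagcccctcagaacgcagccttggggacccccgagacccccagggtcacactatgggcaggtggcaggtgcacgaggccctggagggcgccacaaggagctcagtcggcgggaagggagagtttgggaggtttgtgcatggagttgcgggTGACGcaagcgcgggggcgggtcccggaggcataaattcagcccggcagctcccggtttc
Fos: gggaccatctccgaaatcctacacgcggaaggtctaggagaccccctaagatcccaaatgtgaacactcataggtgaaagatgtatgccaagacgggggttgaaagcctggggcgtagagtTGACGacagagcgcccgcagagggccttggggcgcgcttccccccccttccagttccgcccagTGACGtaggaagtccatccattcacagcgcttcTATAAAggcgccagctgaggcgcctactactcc
Areg: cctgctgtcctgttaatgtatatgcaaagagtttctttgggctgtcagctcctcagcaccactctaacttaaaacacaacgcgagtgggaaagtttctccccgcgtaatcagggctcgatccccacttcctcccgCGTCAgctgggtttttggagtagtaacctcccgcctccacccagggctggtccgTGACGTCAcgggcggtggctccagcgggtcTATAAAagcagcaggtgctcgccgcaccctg
Sertad1: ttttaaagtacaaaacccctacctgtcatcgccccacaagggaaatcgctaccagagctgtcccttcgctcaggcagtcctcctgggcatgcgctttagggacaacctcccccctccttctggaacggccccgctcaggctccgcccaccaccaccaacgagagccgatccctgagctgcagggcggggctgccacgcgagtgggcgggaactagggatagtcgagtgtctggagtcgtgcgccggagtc
Gpr12: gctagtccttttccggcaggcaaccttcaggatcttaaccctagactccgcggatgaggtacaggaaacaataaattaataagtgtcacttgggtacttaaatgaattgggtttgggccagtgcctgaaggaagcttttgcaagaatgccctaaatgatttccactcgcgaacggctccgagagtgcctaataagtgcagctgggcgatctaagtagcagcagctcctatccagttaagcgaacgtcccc
Zfp879: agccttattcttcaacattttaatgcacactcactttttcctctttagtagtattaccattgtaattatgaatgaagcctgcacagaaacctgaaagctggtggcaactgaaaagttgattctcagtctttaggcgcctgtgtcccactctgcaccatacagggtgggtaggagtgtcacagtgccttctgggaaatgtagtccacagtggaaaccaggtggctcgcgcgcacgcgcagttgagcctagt

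Fos carried a TATA box with its first base at -33 from the start site and short CREs at -66 and -129, and Areg a TATA box at -31 and a full CRE at -61 beside a separate short CRE. Egr4 carried short CREs at -109 and -177, Fosb a short CRE at -60 and Egr2 an E-box at -27. No match lay in the 250 bases of Sertad1, Gpr12 or Zfp879, which says only that these letters are not in this window.

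AP-1 factors, the dimers of Fos, Jun, Atf and small Maf proteins, rose as a group. 12 of 12 tested members were called higher, 9 of them at least 2-fold, with a median of 1.84. The shares over all genes were 21.3% higher and 2.66% at least 2-fold higher. Fosb went from 4.93 to 10.8 (median 6.40) normalised counts in controls to 754 and 901 after BDNF, and Fos from 25.1 to 43.3 (median 33.3) in controls to 1715 and 1738 after BDNF. For neither gene did the groups come near each other, with a log2 fold change of 6.72 ± 0.22 (adjusted p = 3.58e-16) for Fosb and 5.63 ± 0.15 (adjusted p = 7.06e-17) for Fos. Junb held 1829 and 1913 after BDNF against 60.1 to 84.6 (median 77.4) in controls, a rise of 4.66 ± 0.13 on the log2 scale. Atf3 (3.33 ± 0.21), Maff (3.13 ± 0.17) and Fosl2 (2.23 ± 0.15) followed in size of rise. Jun (1.36 ± 0.08) and Jund (1.00 ± 0.11) also rose. Fosl1 rose by 1.45 ± 0.15, with 195 and 179 against 57.7 to 77.9 (median 68.7). The 3 members of this list that were not tested, Batf, Batf2 and Batf3, had too few counts.

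Among 27 other early response factors, 18 were called higher (66.7%), 12 of them at least 2-fold, and 2 lower (7.41%), with a median of 0.80. The shares over all genes were 21.3% higher, 2.66% at least 2-fold higher and 19.0% lower. Nr4a1, an orphan nuclear receptor, held 657 and 704 normalised counts after BDNF and 50.9 to 64.4 (median 55.9) in controls, which did not overlap (log2 fold change 3.57 ± 0.11, adjusted p = 1.21e-16). Its paralogs rose by 1.44 ± 0.08 (Nr4a2) and 1.10 ± 0.08 (Nr4a3). Npas4, a neuronal factor known for its dependence on calcium influx, held 362 and 377 after BDNF against 60.1 to 114 (median 90.5) in controls (log2 fold change 2.10 ± 0.27, adjusted p = 5.26e-05). Csrnp1 (4.33 ± 0.19), Ier2 (2.88 ± 0.09), Ier5l (2.80 ± 0.10), Arid5a (2.64 ± 0.22) and Cebpb (2.59 ± 0.29) also rose. SRF itself rose (Srf, 1.65 ± 0.07), as did Etv5 (1.77 ± 0.07), a factor of the Ets family that receptor tyrosine kinases induce through ERK. The members called lower were Mycn (-0.65 ± 0.06) and Ets1 (-0.30 ± 0.12), while Myc was called higher (0.46 ± 0.11). Ets1 was no longer called without either BDNF library, control 1 h B or control 10 h A, whereas Mycn was.

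Kruppel-like factors moved both ways, with 8 of 14 called higher and 2 lower. Klf10 held 2880.1 and 2812 after BDNF against 193 to 225 (median 218) in controls, a log2 fold change of 3.72 ± 0.09, and Klf9, Klf16, Klf5, Klf4 and Klf6 rose at least 2-fold. Klf11 fell by 1.19 on the log2 scale, from 371 to 411 (median 386) in controls to 152 and 190.0 after BDNF. In the list of CREB, CRTC, SIK and clock genes 12 of 23 were called higher and 3 lower. The period genes Per1 (2.37 ± 0.09) and Per2 (2.14 ± 0.09) and the kinases Sik1 (2.08 ± 0.08) and Sik2 (1.73 ± 0.11), which restrain CREB coactivators, had the largest rises, and Dbp (-0.54 ± 0.20), Nr1d1 (-0.35 ± 0.15) and Creb1 (-0.16 ± 0.06) fell. These 3 falls were not called without BDNF library A or without B. Hey1 (1.85 ± 0.11) and Bhlhe40 (1.79 ± 0.10) led the 7 of 20 Notch, Hes and Id genes that rose. Notch1, Notch2 and Notch3 themselves were not called, at -0.09 ± 0.17, 0.01 ± 0.16 and -0.09 ± 0.17. Of NF-kappaB genes 7 of 13 rose, led by Rel (2.53 ± 0.36), Nfkbid (2.02 ± 0.22) and Relb (1.34 ± 0.21). Nfkbia (-0.08 ± 0.13), Tnfaip3 (-0.44 ± 0.22) and Icam1 (-0.28 ± 0.31) were not called. Some other fits did call Tnfaip3, among them edgeR and the one with controls of 1 h only. Histone-modifying enzymes split into 11 higher (35.5%) and 8 lower (25.8%) of 31, beside 21.3% and 19.0% of all genes. Kdm7a (2.12 ± 0.09), Kdm6b (1.78 ± 0.08) and Hdac5 (1.50 ± 0.09) rose at least 2-fold. Hdac11 (-0.59 ± 0.10), Hdac10 (-0.50 ± 0.12) and Kat2b (-0.41 ± 0.08) fell.

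**Figure D2:**
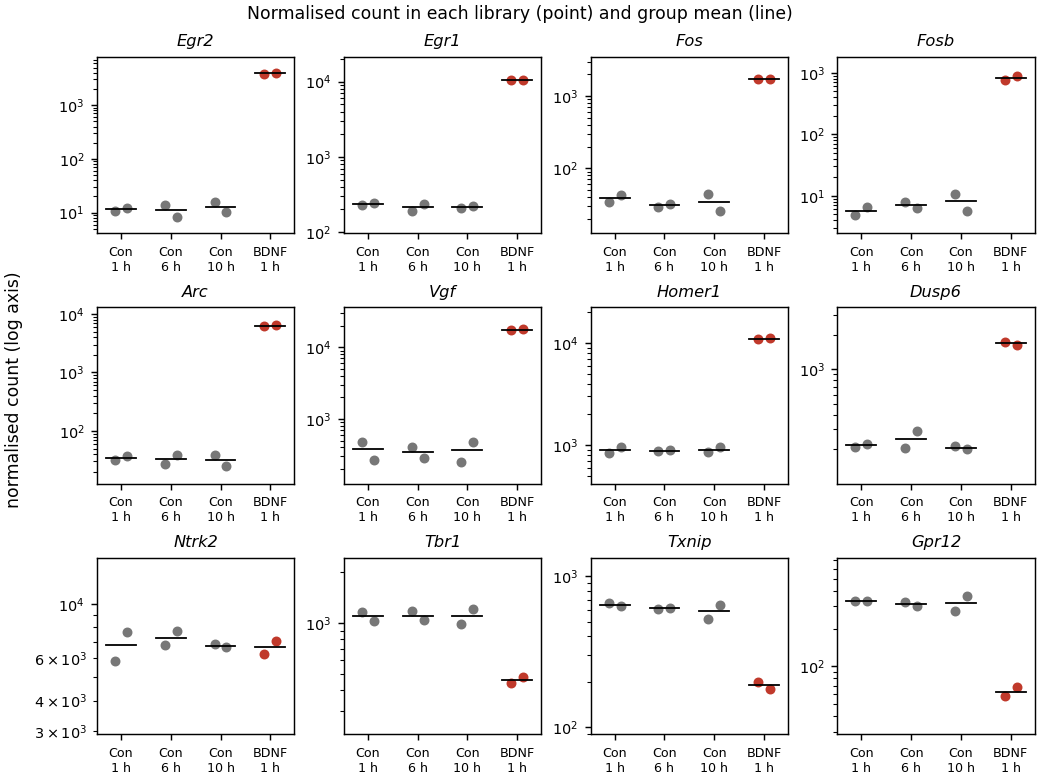
Normalised counts (log axis) of 12 genes in each of the 8 libraries, grouped as controls of 1, 6 and 10 h (grey) and BDNF 1 h (red), with the group mean as a line. The BDNF points of Egr2, Egr1, Fos, Fosb, Arc, Vgf, Homer1 and Dusp6 lie above all 6 controls, those of Tbr1, Txnip and Gpr12 lie below them, and those of Ntrk2 lie among them.

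In the TrkB pathway itself, the ligand gene Bdnf rose, with 158 and 172 normalised counts after BDNF and 38.5 to 65.1 (median 62.5) in controls (log2 fold change 1.49 ± 0.19, adjusted p = 5.99e-06). The lowest control stood apart from the other controls of Bdnf, and both BDNF values were above all of them. The receptor gene Ntrk2 was not called: it held 6239 and 7005 after BDNF and 5835 to 7734 (median 6796) in controls, and the groups overlapped (-0.06 ± 0.09, adjusted p = 0.654). Ngfr (1.15 ± 0.19), the gene of the p75 receptor, rose more than 2-fold, and Ntf3, the ligand of TrkC, held 39.5 and 55.7 after BDNF against 80.3 to 106 (median 95.0) in controls, a log2 fold change of -0.98 ± 0.18. In all, 4 of the 7 tested genes of neurotrophins and their receptors rose (57.1%) and 1 fell (14.3%), beside 21.3% and 19.0% of all genes.

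Genes of the kinase cascades below the receptor were measured next. Of 30 adaptors and Ras-ERK members, 12 were called higher (40%), 3 lower (10%), and 0 by 2-fold or more (median 0.09). Of all genes tested, 21.3% were called higher and 19.0% lower. Shc3 (0.97 ± 0.12) and the RSK kinase gene Rps6ka1 (0.78 ± 0.15) were among those that rose, and Frs3 (-0.71 ± 0.18), an adaptor of receptor tyrosine kinases, fell. Of 24 PI3K, Akt, mTOR and PLC genes 8 rose (33.3%) and 6 fell (25%). Only Irs2, an adaptor of insulin and related receptors, passed 2-fold (472 ± 50.6 to 2085 ± 261 normalised counts, log2 fold change 2.14 ± 0.11, adjusted p = 2.87e-12), and Rheb rose by 0.83 ± 0.08. Itpr1 (-0.27 ± 0.08), Pik3r1 (-0.25 ± 0.06), Tsc1 (-0.22 ± 0.09) and Prkca (-0.20 ± 0.08) fell. With BDNF library A left out, 5 PI3K genes were higher and 2 lower, and without A or without B 1 gene of the Ras-ERK list was lower.

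Receptor signalling is limited by phosphatases, adaptors and ubiquitin ligases. Of 29 feedback inhibitors of receptor kinases and MAP kinases, 18 were called higher (62.1%), 11 of them at least 2-fold, and 4 lower (13.8%). The median was 0.56. The shares over all genes were 21.3% higher, 2.66% at least 2-fold higher and 19.0% lower. Dusp6, a cytoplasmic phosphatase of ERK, held 1730.5 and 1631 after BDNF and 201 to 288 (median 211) in controls (log2 fold change 2.92 ± 0.11, adjusted p = 1.68e-14). Both BDNF values were above all controls. Dusp5, a nuclear ERK phosphatase, went from 24.1 to 45.0 (median 36.7) in controls to 646 and 602 after BDNF, a log2 fold change of 4.07 ± 0.18. Dusp14 (3.58 ± 0.19), Dusp4 (2.94 ± 0.16) and Dusp1 (1.14 ± 0.09) followed, whereas Dusp7 fell (-0.45 ± 0.11), and Dusp2, Dusp10 and Dusp16 were not called. The Sprouty and Spred families, inhibitors of Ras activation, rose in all members tested, Spry4 (3.16 ± 0.19), Spry2 (1.25 ± 0.08), Spry1 (0.72 ± 0.13), Spred2 (1.72 ± 0.08), Spred3 (1.34 ± 0.07) and Spred1 (0.82 ± 0.08). Errfi1 (1.31 ± 0.14) and Trib1 (2.81 ± 0.12), which restrain EGF receptors and MAP kinase kinases, rose as well. Lrig3 (-0.78 ± 0.28), Socs2 (-0.59 ± 0.07) and Cblb (-0.46 ± 0.08) fell. When BDNF library A was left out, Lrig3 and Dusp7 were no longer called.

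Among synaptic and signalling effectors, 27 of 29 were called higher (93.1%), 20 of them at least 2-fold, and 1 lower (3.45%), with a median of 1.70. The shares over all genes were 21.3% higher, 2.66% at least 2-fold higher and 19.0% lower. Arc, whose product controls AMPA receptor trafficking (chr15:74669083-74672570), held 6244 and 6474 normalised counts after BDNF and 25.1 to 39.4 (median 34.2) in controls (log2 fold change 7.56 ± 0.15, adjusted p = 1.49e-19). Homer1, a postsynaptic scaffold with a short activity-induced form, held 11003 and 11135 against 843 to 962 (median 883) (log2 fold change 3.62 ± 0.08, adjusted p = 2.6e-19), and counts per gene do not tell its forms apart. Rrad, a small GTPase that inhibits calcium channels, went from 1.10 to 7.26 (median 4.75) in controls to 411 and 428 after BDNF (log2 fold change 6.39 ± 0.38, adjusted p = 9.37e-12). No value of these genes overlapped between the groups. The secreted pentraxins Nptx1 (3.55 ± 0.10) and Nptx2 (3.21 ± 0.13), the G protein regulator Rgs4 (3.23 ± 0.16), the prostaglandin synthase gene Ptgs2 (3.00 ± 0.41), the kinase gene Sgk1 (2.82 ± 0.11), the cell cycle inhibitor Cdkn1a (2.77 ± 0.13) and the neurite growth factor Nrn1 (2.69 ± 0.12) each rose more than 4-fold. Gadd45b, linked to DNA demethylation and stress, rose by 4.38 ± 0.22. Rasgrp1 fell (-0.61 ± 0.14) and Syt4 was not called (-0.06 ± 0.08).

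Vgf, a granin whose peptides are released from dense-core vesicles, held 17183 and 17977 normalised counts after BDNF and 251 to 481 (median 346) in controls (log2 fold change 5.65 ± 0.29, adjusted p = 2.72e-08). 16 of 24 granins, neuropeptides and processing enzymes rose (66.7%) and 1 fell (4.17%), beside 21.3% and 19.0% of all genes (median 0.50). Scg2 (2.00 ± 0.16), the convertase gene Pcsk1 (1.79 ± 0.24), Tac1 (1.23 ± 0.22), Vip (1.11 ± 0.29) and Pnoc (1.05 ± 0.11) rose at least 2-fold. Gal, the galanin gene, held 12.2 and 13.7 after BDNF and 0 to 1.96 (median 1.07) in controls (2.89 ± 0.41), which are few counts in each library. Adcyap1, the gene of PACAP, fell by 1.04. Without BDNF library A, 9 of these genes were higher and Adcyap1 was not called. Of 19 growth factor and cytokine ligands, 9 rose (47.4%) and 0 fell, beside the same shares of all genes. Areg, a ligand of the EGF receptor, went from 0.979 to 3.11 (median 1.70) in controls to 120.1 and 105 after BDNF (log2 fold change 5.40 ± 0.33, adjusted p = 1.43e-11), and Pdgfb (2.05 ± 0.22), Vegfa (1.31 ± 0.07) and Pdgfa (1.08 ± 0.09) rose by smaller steps.

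A pair of rows on chromosome 11 held the precursor of the microRNA miR-132 and the non-coding transcript 1700016P03Rik. The Mir132 row (chr11:75173682-75173747) lies within the longer gene (chr11:75172560-75177633), on the same strand, so reads of the long transcript can be counted in both. Mir132 held 88.2 and 71.0 normalised counts after BDNF and 0 to 1.14 in controls, of which 4 were at 0. The long transcript held 338 and 347 against 2.29 to 7.21 (median 4.71) (log2 fold change 5.99 ± 0.27, adjusted p = 1.79e-13). Libraries of poly(A) RNA do not measure the mature miRNA.

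Actin and SRF target genes rose in 14 of 22 cases and fell in 1 (median 0.46). Vinculin (Vcl, 2.02 ± 0.16), Fhl2 (1.54 ± 0.22), Wdr1 (1.27 ± 0.05), Zyx (1.15 ± 0.08) and the non-muscle myosin gene Myh9 (1.03 ± 0.16) were at least 2-fold higher. The beta-actin gene Actb went from 26396 ± 1188 to 38469 ± 1305 normalised counts (log2 fold change 0.54 ± 0.07, adjusted p = 5.56e-06). The smooth muscle genes Acta2, Tagln and Myl9 and the YAP targets Ccn1 and Ccn2 were not called, and Mrtfb, an SRF coactivator, fell (-0.44 ± 0.11). Of mRNA decay and Btg/Tob genes 7 of 22 rose (31.8%) and 3 fell (13.6%), beside 21.3% and 19.0% of all genes. Btg2, an antiproliferative early gene, held 1574 and 1648 against 576 to 795 (median 692) (log2 fold change 1.24 ± 0.14, adjusted p = 1.69e-06), and Zfp36, which destabilises AU-rich mRNAs, rose by 1.01 ± 0.28. With BDNF library A left out, 4 of these genes were higher and 1 lower, and neither Zfp36 nor Mrtfb was called.

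Cholesterol synthesis and uptake genes rose in 22 of 26 cases (84.6%), 9 of them at least 2-fold, and fell in 1 (3.85%), with a median of 0.83. The shares over all genes were 21.3% higher, 2.66% at least 2-fold higher and 19.0% lower. Sc5d, a desaturase of the late steps, held 2771 and 2861 normalised counts after BDNF and 925 to 1039 (median 965) in controls (log2 fold change 1.53 ± 0.08, adjusted p = 8.21e-13), with no overlap. Cyp51 (1.45 ± 0.07), Idi1 (1.37 ± 0.10), Msmo1 (1.29 ± 0.09) and Insig1 (1.26 ± 0.06), an inhibitor of the pathway that it also reports on, rose in the same range. The member that fell was Abcg1 (-1.03 ± 0.11), a cholesterol exporter. Srebf2, the transcription factor of the pathway, rose by 0.51 ± 0.06, and Srebf1 was not called (-0.13 ± 0.18).

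Over all genes 21.3% were called higher and 19.0% lower, which holds for each list in this paragraph. Among glucose transporters and glycolytic enzymes, 14 of 23 rose (60.9%) and 0 fell, with a small median log2 fold change of 0.18. The transporter genes Slc2a3 and Slc2a1 were the 2 that rose at least 2-fold. Slc2a3, a glucose transporter of neurons, held 5339 and 5593 after BDNF against 1223 to 1481 (median 1405) in controls (log2 fold change 1.98 ± 0.08, adjusted p = 1.64e-14), and Slc2a1 rose by 1.61 ± 0.18. The list had 8 members higher without BDNF library A, 8 without B and 9 with TMM scaling. The Atf4 and amino acid list had 10 of 16 higher and 0 lower, with Ddit3 (1.81 ± 0.11), Atf4 (1.15 ± 0.07) and the arginine transporter gene Slc7a1 (1.02 ± 0.07) above 2-fold. In the list of chaperones and heat shock genes 10 of 14 rose, led by Dnajb1 (1.35 ± 0.09), ahead of Hspa5 (0.67 ± 0.07). The transcription factor gene Xbp1 rose by 0.66 ± 0.08.

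Genes of ribosomes, proteasomes and respiration had small fold changes. Ribosome biogenesis genes were higher in 16 of 23 (median 0.27), with Rrp1b (0.82 ± 0.13) and Nolc1 (0.76 ± 0.09) at the top and Polr1b (-0.31 ± 0.09) lower. Cytosolic ribosomal proteins were higher in 38 of 78 and lower in 0 (median 0.20), proteasome subunits higher in 23 of 35 and lower in 1 (0.20), and respiratory chain genes higher in 24 of 77 and lower in 1 (0.15). SR proteins and splicing kinases rose in 11 of 19, with Tra2b at 0.54 ± 0.06. The share of all genes called higher was 21.3%. When BDNF library A was left out, 3 ribosomal protein, 2 respiratory chain, 8 proteasome and 7 SR genes were called higher, and with the controls of 1 h alone 5, 3, 10 and 7. Leaving out BDNF library B gave 26, 15, 17 and 8. Each of these settings has fewer libraries, and over all genes the number called higher fell from 3459 to 2169 without A, 2514 without B and 2363 with the controls of 1 h alone. With TMM scaling the 5 lists, in the order given, had 14, 29, 16, 14 and 10 members higher. Ribosomal protein genes also share reads with many processed pseudogenes.

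**Figure D3:**
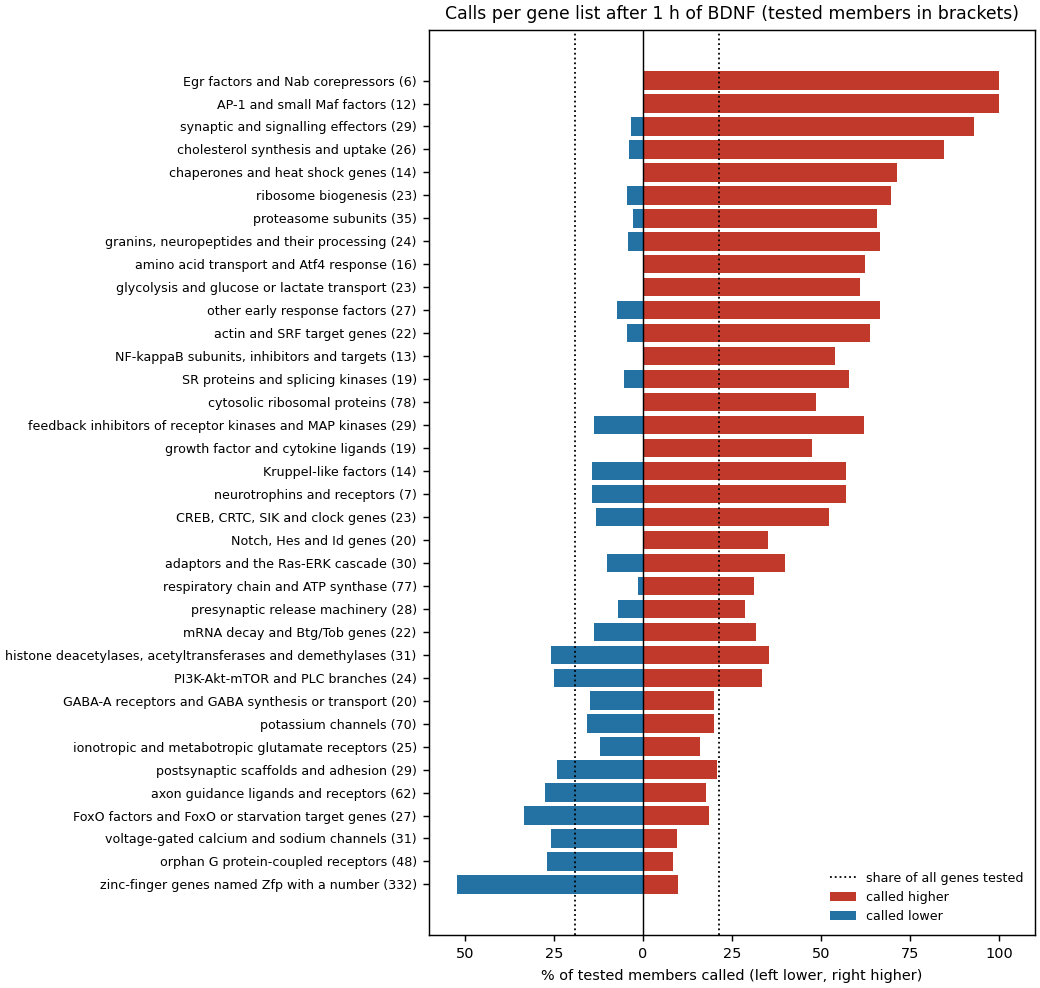
Share of tested members of each of 36 gene lists called higher (red, to the right) or lower (blue, to the left) after 1 h of BDNF, with the number of tested members in brackets and dotted lines at the share of all genes tested (21.3% higher, 19.0% lower). Egr and AP-1 factors reach 100% higher, and zinc-finger genes have the longest blue bar.

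No fall reached 8-fold. The 15 largest falls among genes above 50 normalised counts were, in order, Gpr12, Zfp879, BC024139, Zfp663, Txnip, Dclk3, Zkscan16, Bhlhe22, Catsperg2, Zfp773, Tha1, B3galt2, Zfp493, Palmd and Kcnv1, with log2 fold changes from -2.34 to -1.51. Gpr12, a constitutively active receptor that raises cAMP, held 57.8 and 67.9 after BDNF and 276 to 366 (median 327) in controls (log2 fold change -2.34 ± 0.11, adjusted p = 1.82e-13). All 6 controls were several times above both BDNF values. Bhlhe22, a neuronal transcription factor with a bHLH domain, fell from 3112 to 3760 (median 3355) in controls to 1189 and 1122 after BDNF (log2 fold change -1.56 ± 0.11, adjusted p = 9.64e-10). B3galt2, a galactosyltransferase gene, fell from 715 to 827 (median 765) in controls to 272 and 260.3 after BDNF (log2 fold change -1.52 ± 0.08, adjusted p = 1.85e-12).

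Orphan G protein-coupled receptors included several large falls, with 13 of 48 lower (27.1%), 7 of them at least 2-fold, and 4 higher (8.33%). Over all genes 19.0% were lower, 1.34% were at least 2-fold lower, and 21.3% were higher. Gpr6 (-2.08 ± 0.24), Gpr139 (-1.90 ± 0.39), Gpr135 (-1.43 ± 0.15), Gpr21 (-1.32 ± 0.11) and Gpr61 (-1.28 ± 0.13) fell with Gpr12. Gpr3, a close relative of Gpr6 and Gpr12, moved the other way, from 18.3 to 33.2 (median 22.8) in controls to 344 and 367 after BDNF (log2 fold change 3.80 ± 0.35, adjusted p = 1.06e-06). Gpr101 (2.59 ± 0.58) rose as well. Without BDNF library A, 2 orphan receptors were higher.

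FoxO factors and FoxO or starvation target genes had 9 members of 27 lower (33.3%) and 5 higher (18.5%), with a median of -0.19. Of all genes, 19.0% were lower and 21.3% higher. In this list 1 member fell and 1 rose at least 2-fold. Txnip, an arrestin that limits glucose uptake, held 199 and 179 after BDNF and 519 to 663 (median 623) in controls (log2 fold change -1.69 ± 0.16, adjusted p = 9.72e-08), and its relative Arrdc4 fell by 1.00. Pik3ip1 (-0.77 ± 0.10), an inhibitor of PI3K, Ccng2 (-0.66 ± 0.07), the ubiquitin ligase gene Fbxo32 (-0.61 ± 0.17) and Sesn1 (-0.58 ± 0.08) also fell. Of the FoxO factors themselves Foxo6 rose (0.90 ± 0.08), Foxo4 fell (-0.35 ± 0.12, but was not called without BDNF library A or without B), and Foxo1 (-0.05 ± 0.08) and Foxo3 (-0.04 ± 0.07) were not called. Of the other members Irs2, Cited2 (0.92 ± 0.09) and Bcl2l11 (0.46 ± 0.11) rose, and Cdkn1b (0.03 ± 0.06) and Sesn3 (-0.20 ± 0.11) were not called. Without control 1 h A, where Sesn3 was lowest, Sesn3 was called lower (adjusted p = 0.0456).

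Zinc-finger genes named Zfp with a number, most of which encode C2H2 proteins, many of them repressors with a KRAB domain, were lower in 173 of 332 cases (52.1%, beside 19.0% of all genes) and higher in 33, with a median log2 fold change of -0.29. Zfp879 fell from 48.9 to 59.1 (median 54.5) in controls to 13.7 and 8.40 after BDNF (log2 fold change -2.23 ± 0.21, adjusted p = 2.16e-08) and Zfp663 from 111 to 143 (median 133) in controls to 30.4 and 45.8 after BDNF (log2 fold change -1.78 ± 0.23, adjusted p = 2.57e-06). These are low counts, and in the protein-coding genes of each of 5 equal groups by control level the zinc-finger genes were lower more often than the group as a whole: 47.1% of 68 against 15.2% in the lowest group, 57.6% of 92 against 26.4% in the middle group, and 38.7% of 31 against 14.1% in the highest. The falls lay on many chromosomes, with 47 of 83 on chromosome 7, 27 of 41 on chromosome 17 and 16 of 28 on chromosome 13. Such genes lie there in clusters, and similar copies can share reads. The share was uneven, from 12 of 14 on chromosome 11 to 1 of 10 on chromosome 18 and 0 of 3 on chromosome 1. The largest rises of the list were Zfp516 (1.36 ± 0.15), Zfp948 (1.17 ± 0.08) and Zfp36, which is a CCCH protein. With TMM scaling 176 were lower, and without BDNF library A 124.

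Genes of synaptic transmission and excitability were called in both directions. Counting calls of any size, glutamate receptors and potassium channels were called no more often than all genes (21.3% higher, 19.0% lower). Of 25 glutamate receptor genes 4 rose (16%) and 3 fell (12%), Grin1 (0.60 ± 0.13) and Grm4 (0.59 ± 0.12) among those higher, Grm7 (-0.27 ± 0.11) and Gria2 (-0.14 ± 0.05) among those lower, while Gria1, Grin2a and Grin2b were not called. With BDNF library A left out, 0 glutamate receptor genes were lower. Potassium channels were higher in 14 (20.0%) and lower in 11 (15.7%) of 70. Of these 70, 8 were at least 2-fold higher and 2 at least 2-fold lower, beside 2.66% and 1.34% of all genes. Kcna1 went from 170.1 to 209 (median 193) in controls to 1929.7 and 2105 after BDNF (log2 fold change 3.38 ± 0.10, adjusted p = 5.83e-17), and Kcnj14 rose by 2.29 ± 0.31, Kcnj4 by 1.88 ± 0.12 and Kcnk3 by 1.64 ± 0.13. Kcnv1, a subunit that is silent on its own, fell from 285 to 363 (median 309) in controls to 106 and 111 after BDNF (log2 fold change -1.51 ± 0.10, adjusted p = 1.26e-10). The number of potassium channels called lower was 5 without BDNF library A, 6 without B and 7 without control 10 h B. Calcium and sodium channel genes fell in 8 (25.8%) and rose in 3 (9.68%) of 31. The sodium channel genes Scn1a (-0.77 ± 0.11), Scn2a (-0.50 ± 0.07), Scn3a (-0.62 ± 0.08) and Scn2b (-0.86 ± 0.11) were among those lower.

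Postsynaptic scaffolds and adhesion genes held 6 higher (20.7%) and 7 lower (24.1%) of 29, beside 21.3% and 19.0% of all genes. Baiap2, an actin regulator of spines, rose from 446 to 551 (median 496) in controls to 4697 and 4585 after BDNF (log2 fold change 3.22 ± 0.08, adjusted p = 9.05e-19), and Lrrtm1 (-0.79 ± 0.08) and Lrrtm3 (-0.75 ± 0.09) fell. Presynaptic genes were higher in 8 (28.6%) and lower in 2 (7.14%) of 28, led by Unc13a (0.73 ± 0.11), with Sv2b (-0.53 ± 0.09) and Vamp1 (-0.58 ± 0.10) lower. In axon guidance 11 of 62 rose (17.7%) and 17 fell (27.4%). Epha2 went from 7.83 to 24.9 (median 13.4) in controls to 137 and 117 after BDNF (log2 fold change 3.09 ± 0.35, adjusted p = 6.72e-07), whereas Epha7 (-0.85 ± 0.07), Efna4 (-0.84 ± 0.14) and Epha4 (-0.50 ± 0.07) fell. When BDNF library A was left out, 4 postsynaptic and 7 guidance genes were lower and 4 presynaptic genes higher, and without B 3 postsynaptic genes were higher, 4 lower and 4 presynaptic genes higher.

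Markers of cell types changed too. Gad1, which makes GABA, went from 2687 ± 317 to 4887 ± 175 normalised counts (log2 fold change 0.87 ± 0.11, adjusted p = 4.05e-06), and Gad2 (0.55 ± 0.08), the vesicular transporter gene Slc32a1 (0.55 ± 0.14) and Sst (0.54 ± 0.18) rose too, whereas the interneuron factors Dlx1 (-0.10 ± 0.07) and Dlx2 (-0.07 ± 0.08) were not called. In the full GABA list 4 of 20 rose (20%) and 3 fell (15%), beside 21.3% and 19.0% of all genes. The receptor subunit gene Gabra4 (-0.26 ± 0.08) was among those lower. Markers of glutamatergic neurons split, with the transporter genes Slc17a7 (0.43 ± 0.12) and Slc17a6 (0.39 ± 0.09) and Neurod2 (0.57 ± 0.07) higher and Neurod6 (-0.56 ± 0.08) among those lower. Tbr1, which specifies deep layer projection neurons, fell more than 2-fold and held 438 and 479 after BDNF and 988 to 1217 (median 1101) in controls (log2 fold change -1.26 ± 0.09, adjusted p = 2.24e-10). Sst was no longer called without BDNF library A or without B, and Slc17a7 without B. In RNA of a whole culture, fewer cells of a type and less RNA per cell cannot be told apart.

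As summed shares of counts, markers of glutamatergic neurons stood at 0.0472 to 0.0473% in the BDNF libraries and 0.0561 to 0.0634% in controls, and those of GABAergic neurons at 0.133 to 0.137% against 0.103 to 0.124%. Each gave an exact permutation p of 0.0357 (two-sided, 28 arrangements of 2 against 6), the smallest this design allows, and 0.134 after adjustment over 15 measures. Shares overlapped between the groups for markers of neurons as a whole (0.460 to 0.464% against 0.462 to 0.504%), astrocytes (0.118 to 0.124% against 0.108 to 0.137%), oligodendrocyte lineage cells, microglia, endothelial cells, mural and meningeal cells and cycling progenitors, with exact p of 0.107 or more. Of single markers, Aldoc was called higher among 6 of astrocytes, Aif1 lower among 4 of microglia, and 0 were called among 2 of endothelial, 5 of mural and meningeal and 7 of cycling cells. Among 7 markers of the oligodendrocyte lineage Mbp rose (0.25 ± 0.11) and Mog fell (-0.92 ± 0.14). Snap25 (0.27 ± 0.08) and Stmn2 (0.14 ± 0.06) were higher among 6 of neurons. None of Snap25, Stmn2, Aldoc, Aif1 and Mbp was called without BDNF library A. The part of cell composition in the gene changes above was not tested.

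Gene structure was compared between classes of change. Protein-coding genes at least 8-fold higher (43 genes) had a median genomic span of 8.83 kb and 5 exons, and those at least 2-fold higher (386) 13.9 kb and 6 exons, beside 25.6 kb and 10 exons for all 13450 tested. Genes at least 2-fold lower were also short, with a median of 14.8 kb. Of 5 equal groups by span, the shortest (up to 8500 bp) had 5.13% of its genes at least 2-fold higher and the longest (from 80198 bp) 1.30%. Falls of 2-fold or more made up 2.01% and 0.818% of the same groups. Without the fold limit the share called higher did not decline steadily with span, being 24.2, 21.4, 21.9, 24.9 and 14.3% from the shortest to the longest group. Control levels moved with these classes, the median being 25.8 normalised counts for genes at least 8-fold higher and 360.2 for all, and the part of level in the pattern of span was not tested.

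Non-coding genes were counted by class. Over all genes tested 19.0% were lower and 21.3% higher, with 1.34% at least 2-fold lower and 2.66% at least 2-fold higher. Of 251 lincRNA genes 26.3% were lower and 8.76% higher, and 21 fell at least 2-fold against 4 that rose so far. Antisense genes were lower in 18.4% and higher in 12.2% of 255, but 15 (5.88%) rose at least 2-fold against 3 (1.18%) that fell so far. The 1560 processed pseudogenes had 28.8% higher and 1.47% lower, but 0.705% at least 2-fold higher. Rows of pseudogenes can hold reads of their parent genes, and strand use in counting is not given in the sources used here. As a share of counts, processed pseudogenes stood at 5.23 and 5.42% after BDNF and 4.79 to 5.26% in controls. The exact permutation p was 0.0714 (two-sided), or 0.214 after adjustment over 15 measures. Antisense genes took a lower share after BDNF, 0.150 to 0.153% against 0.170 to 0.181% (exact permutation p = 0.0357, adjusted 0.134). The shares of lincRNA genes overlapped (0.862 to 1.04% against 0.843 to 0.992%). Of genes with too few counts for the test, 2 reached 20 normalised counts after BDNF. Atp12a, a proton pump subunit, held 25.9 and 21.4 against a control mean of 6.60, and Epha1 19.8 and 21.4 against 5.95.

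Promoter sequences, 300 bases around the RefSeq start site, were available for 316 genes at least 2-fold higher, 147 at least 2-fold lower and 10962 of all genes tested, and were searched on both strands. CArG boxes lay in 4.75% of the first, 1.36% of the second and 1.35% of all, and in 1.63% of the 32851 promoters in the reference table. The CRE TGACGTCA lay in 6.33%, 2.04% and 3.28% (1.79% of the reference table), and its short form TGACG in 40.5%, 26.5% and 31.6% (20.8%). The TATA box TATAAA lay in 14.6%, 8.84% and 6.74% (13.6%). The share was higher in rising genes than in all genes tested for each of these elements, and also for each element named below. AP-1 sites TGANTCA lay in 8.86% of rising and 8.84% of falling genes and 4.31% of all (7.81% of the table). The EGR site GCGTGGGCG lay in 2.53%, 0% and 1.28% (0.612%), the E-box CACGTG in 13.0%, 6.12% and 10.1% (7.15%), and the FoxO site GTAAACA in 3.16%, 2.72% and 2.34% (3.65%).

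Chromatin accessibility was measured by ATAC-seq in the same design, so promoters of these genes could be examined for opening. Of 14306 promoter peaks, 602 (4.21%) were called more open after BDNF (gained) and 380 (2.66%) less open (closing) by edgeR's quasi-likelihood test, beside 11.2% gained and 5.20% closing of all 56383 peaks tested. A gained promoter peak was found for 13 of 41 genes with a promoter peak that rose at least 8-fold (31.7%), 53 of 320 that rose at least 2-fold (16.6%), 87 of 2801 called lower (3.11%) and 543 of 12530 in all (4.33%). The promoters of most of the 41 strongly rising genes had no gained peak. A closing peak was found for 2 of 163 genes at least 2-fold lower (1.23%) and 2.94% of all genes. TMM scaling reversed the balance of these calls, with a closing peak for 919 and a gained peak for 383 of the 12530 genes (a peak can serve more than 1 gene), and a closing peak for 10 of the 163 (6.13%, beside 7.33% of all). Under it 11 of the 41 strongly rising genes had a gained peak (26.8%, beside 3.06% of all). Without ATAC BDNF library A or B, 9 and 8 of the 41 genes had a gained peak, and 1.94% and 1.97% of all genes, and there were 286 and 292 gained and 128 and 139 closing promoter peaks.

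At single genes, the promoter peak with the most insertions was compared. For Arc (chr15:74672355-74672871) the counts, scaled between libraries, were 121 and 132 after BDNF and 62.1 to 116 (median 73.7) in controls (log2 fold change 0.62 ± 0.18, adjusted p = 0.00799). At Nr4a1 they were 98.1 and 76.2 against 37.1 to 62.2 (median 46.8) (0.82 ± 0.20, adjusted p = 0.00147), and at Egr4 81.3 and 83.8 against 38.3 to 63.3 (median 57.8) (0.65 ± 0.22, adjusted p = 0.0382). In each case both BDNF values were above all controls. Homer1 (0.35 ± 0.09, adjusted p = 0.00121) and Egr1 (0.32 ± 0.09, adjusted p = 0.00416) gained by less, and Fosl1 (1.26 ± 0.36, adjusted p = 0.00807) by more, at a weak peak where the BDNF values were 30.6 and 42.2 and controls 3.91 to 24.9. No call was made at Fos (0.37 ± 0.17, adjusted p = 0.146), Egr2 (-0.12 ± 0.15, adjusted p = 0.705), Fosb (-0.17 ± 0.18, adjusted p = 0.65), Vgf (0.09 ± 0.16, adjusted p = 0.819) or Dusp6 (-0.15 ± 0.10, adjusted p = 0.388). Among falling genes, the peaks of Txnip (0.10 ± 0.15, adjusted p = 0.76) and Gpr12 (0.01 ± 0.28, adjusted p = 0.993) were not called either. Gained peaks also lay at genes whose RNA fell, such as Itpr1 (0.32 ± 0.10, adjusted p = 0.0235) and Cnot3 (0.27 ± 0.07, adjusted p = 0.00427), and at genes whose RNA was not called. Among the latter was Acta2, with 62.5 and 37.0 insertions after BDNF and 1.22 to 19.0 in controls (2.43 ± 0.37, adjusted p = 3.63e-08), and Grin2b (0.88 ± 0.18, adjusted p = 0.000104).

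**Figure D4:**
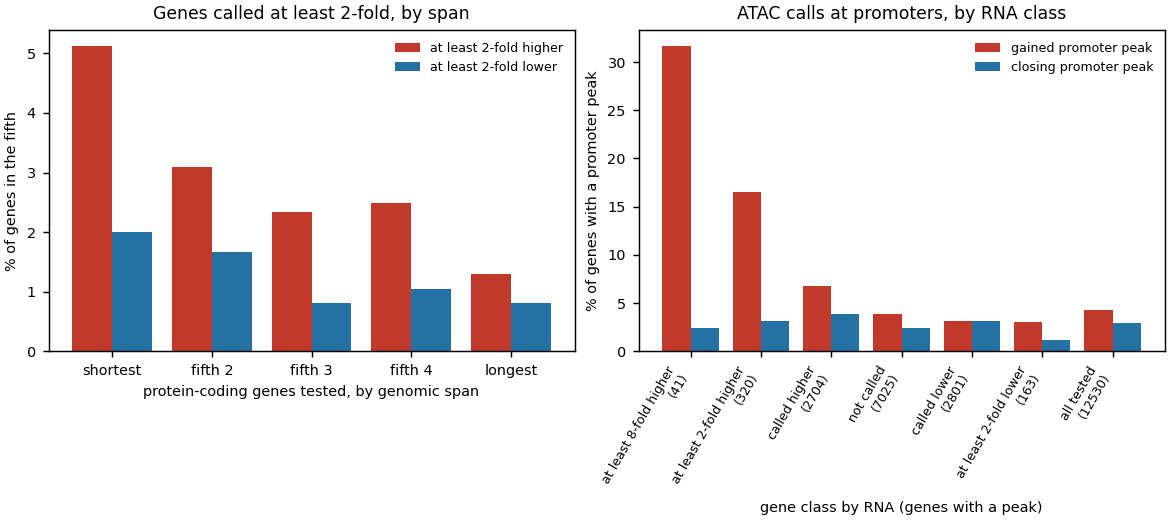
Left, percentage of protein-coding genes called at least 2-fold higher (red) or lower (blue) in 5 equal groups by genomic span, which falls for rises from 5.13% in the shortest to 1.30% in the longest group. Right, percentage of genes with a promoter peak that had a gained (red) or closing (blue) peak, by class of RNA change, with the number of such genes in brackets, which is 31.7% gained for genes at least 8-fold higher and 4.33% for all.

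Levels in the other groups, which were compared with the same controls, are set beside these values. Of the 431 genes at least 2-fold higher at 1 h, 125 had a mean at least 2-fold above the control mean after 6 h of BDNF and 96 after 10 h, and the median log2 ratio to controls was 0.57 and 0.40 at these times. At 1 h, the time that chose the genes, it was 1.44. KCl, which depolarises neurons, gave medians of 0.60, 0.77 and 0.49 at 1, 6 and 10 h. For the 217 genes at least 2-fold lower it was -1.18, -0.47 and -0.36 with BDNF and -0.61, -0.51 and -0.28 with KCl. Zinc-finger genes named Zfp had a median of -0.29 after 1 h of BDNF and -0.78 after 1 h of KCl.

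Later times are given for 5 genes. Mean normalised counts of Fosb were 827 at 1 h of BDNF, 6.81 at 6 h and 7.74 at 10 h, and 7.01 ± 2.10 (SD, n = 6) in controls. Nr4a1 went from 680.3 to 66.3 and 54.4. Arc, in contrast, held 6359, 938 and 608, and Vgf 17580, 12206 and 9839, above the highest control at every time. Dusp6 kept 1904 and 1583 after 1681 at 1 h. After 1 h of KCl the means were 5754 for Fosb, 7063 for Nr4a1, 3872 for Npas4, 161 for Arc, 1714 for Egr1 and 2159 for Vgf, against 369 for Npas4 and 10536 for Egr1 after 1 h of BDNF. These differences between stimuli and times were not tested here.

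**Figure D5:**
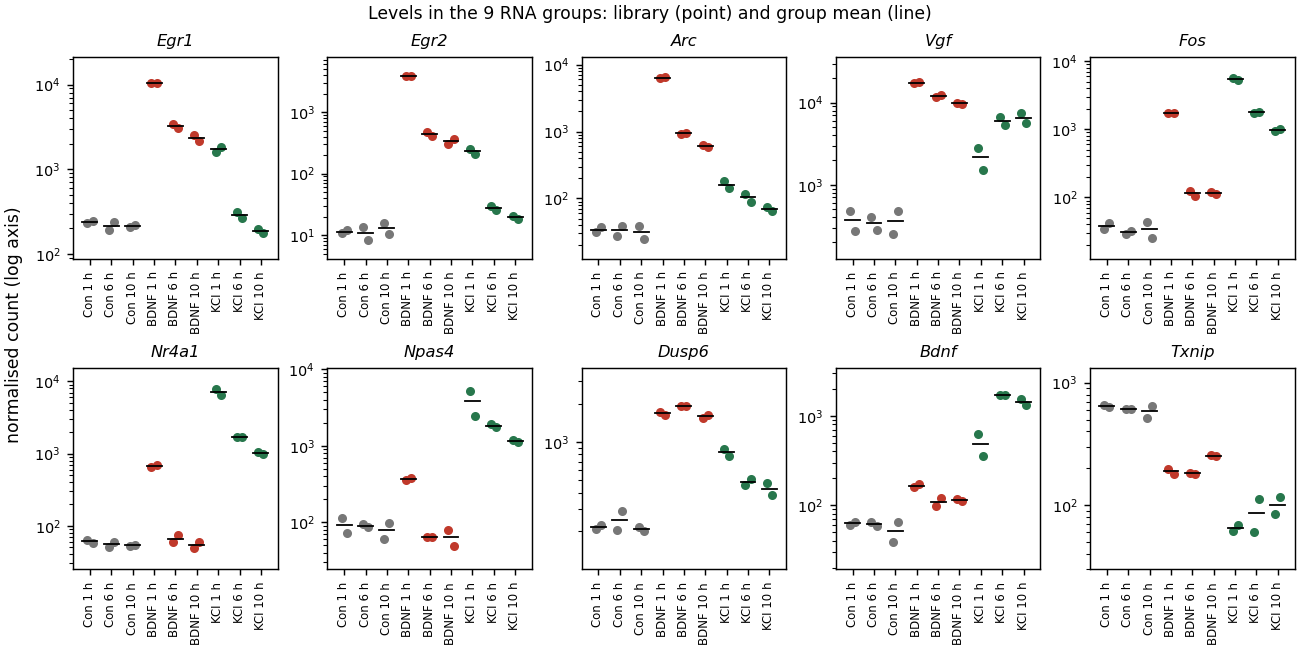
Normalised counts (log axis) of 10 genes in the 9 RNA groups, with 2 libraries per group as points (grey controls, red BDNF, green KCl) and the group mean as a line. Egr1, Egr2, Arc and Vgf are highest in BDNF 1 h, Fos, Nr4a1 and Npas4 in KCl 1 h, and Bdnf in KCl 6 h, whereas Txnip is below its controls in all stimulated groups.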

How the data were processed

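Poly(A) RNA was sequenced with 75-base single-end reads in 18 libraries. The authors aligned reads to mm10 with TopHat2, and how reads were assigned to genes is not given in the sources used here. RNA values were deposited as a signal, in which the authors scaled the counts of each library by its DESeq2 size factor, and in every column 100% of values were whole reads within 0.01 of a read, which gave depth. The deposited ATAC values are raw counts in peaks that the authors called with MACS2 and counted with DiffBind after Bowtie2 alignment. Tables of the authors' own comparisons (fold changes and p-values) were not used.

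log2(value + 1) was fitted with limma 3.58.1 (trend, robust, with 7 levels over 18 libraries, the 6 controls as 1 level) for genes with a mean of at least 10. ATAC counts were fitted with edgeR 4.0.16 (quasi-likelihood) with LOESS offsets, for peaks with a mean of at least 10. Both tests were two-sided, with Benjamini-Hochberg adjustment over all features and calls below 0.1. ATAC standard errors were derived from the F statistic and the fold change. RNA fold changes are on the log2(value + 1) scale, which understates those of low genes. Values after ± are SE for fold changes and SD for levels (n = 2 BDNF, n = 6 controls). Promoter peaks were those within 1000 bp before or 100 bp after a start site in GENCODE M21. M21 named 26162 of 26709 genes. ATAC letters A and B name columns only. The scripts were tested on simulated data.

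The genes described and the 36 lists and 9 marker lists were chosen with earlier results of these data known. Named were the 15 largest rises and falls (called, groups not overlapping, mean of at least 50), up to 4 called members in each direction per list, 19 known genes whatever their values, and genes under the minimum with a BDNF mean of at least 20. A further 76 genes were chosen after their values were seen. Some selected genes are not reported here. The labels do not say whether replicate letters pair libraries. Same-letter deviations had a correlation over 0.1 in 1 of 6 pairs between BDNF 1 h and controls, or among the controls. Over all 9 groups 13 of 36 pairs did (-0.31 to 0.42). With 2 libraries per group, these correlations cannot decide whether libraries were paired.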

Additional observations from a re-analysis of the deposited data

Results flagged for a closer look

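Among the 6 controls, 1 library lay far from the other 5 by Dixon's criterion for 14 of 316 genes selected for description, and chance alone sets about 1 gene in 20 apart. In normalised counts, these were Mir132 (1.14 in control 10 h B, others 0 to 0.328), Txnip (519 in control 10 h A, others 609.9 to 663), Tha1 (42.5 in control 6 h B, others 60.1 to 64.7), Bdnf (38.5 in control 10 h A, others 59.1 to 65.1), Tsc1 (1345 in control 10 h A, others 1473 to 1531), Klf10 (193 in control 10 h A, others 214 to 225), Cox5a (628 in control 1 h A, others 529.9 to 561), Tra2b (1668 in control 10 h A, others 1494 to 1556), Grm7 (357 in control 10 h A, others 423 to 463), Sv2c (90.6 in control 1 h A, others 126 to 145), Efna4 (142 in control 10 h A, others 113 to 123), Dusp6 (288 in control 6 h B, others 201 to 224), Fbxo32 (76.8 in control 1 h B, others 56.0 to 58.4) and Sesn3 (277 in control 1 h A, others 346 to 382). Control 10 h A was the distant library in 7 of these, both above and below the others. For Bdnf and Txnip the BDNF values lay outside the range of all 6 controls, the distant one included.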

How the results depend on the processing

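Leaving out 1 library at a time gave 3926 to 6599 genes called (2169 to 3542 higher, 1757 to 3057 lower), 407 to 439 at least 2-fold higher and 204 to 306 at least 2-fold lower, and 286 to 586 gained and 128 to 403 closing promoter peaks. At an adjusted p below 0.01, 3611 genes (2033 higher, 1578 lower), 259 gained and 59 closing peaks were called. With controls of 1 h only, 2030 genes were lower. With no filter 713 and 455 genes were at least 2-fold higher and lower, and with a mean of at least 50 286 and 97. A pseudocount of 8 left 102 at least 2-fold lower. TMM scaling called 869 closing promoter peaks. Within 150 bp, shares among genes at least 2-fold higher were 29.4% for the short CRE, 3.48% for AP-1, 10.8% for TATA and 7.91% for the E-box, beside 22.4%, 1.91%, 2.98% and 6.34% of all genes tested. By span, the reported rises of at least 2-fold made up 5.13% of the shortest and 1.30% of the longest group. Rises called at any size made up 24.2% and 14.3%. EdgeR on whole reads called 6430 genes (3071 higher) and DESeq2 5759 (3010 higher). Over 316 genes selected for description and 20 alternatives, 6076 values had the direction and call of the reported fit, 206 lost the call, 6 gained 1 and 0 reversed. The 6 gains were those of Tnfaip3 (edgeR, the 8 samples alone, controls of 1 h only, without control 10 h B), Pdgfra (the 8 samples alone) and Sesn3 (without control 1 h A). Without BDNF library A, 43 genes lost the call, and without B 29. The cause of these differences was not tested. A replicate block on the column letter gave 6705 genes called, and whether the letters pair the libraries is not known. With 8508452 reads in BDNF library A, genes near 10 normalised counts carry counting error beside the spread between libraries.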
